A study of Homo sapiens with 9 samples.

Results

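Cells release ATP into the medium and break it down there, and the products act on receptors of the same cells or of their neighbours. A total of 10 genes of this system were described in 3 human kidney cell lines, out of 28395 genes listed in the count table. They are *SLC17A9* and *PANX1*, whose products take part in ATP release, *ENTPD1*, *NT5E*, *ENPP1* and *ENPP4*, which encode enzymes that hydrolyse extracellular nucleotides, *P2RY2* and *P2RX4*, which encode receptors for ATP, and *ADORA1* and *ADORA2B*, which encode receptors for adenosine. *SLC17A9* and *ENPP4* were picked because they were at 0 counts in one line and well detected in another, so their values are given as a description with no test. The other 8 were chosen by function and were tested. All 10 passed the filter on low counts, an average count of 50 or more per library, a filter that *SLC17A9* and *ENPP4* passed through the lines in which they were high.

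RNA was sequenced from HK2, a line from normal proximal tubule, from 786-O, a line from a clear cell renal cell carcinoma (ccRCC), and from a metastatic derivative of 786-O (the metastatic line), obtained through lung metastases that formed after injection in vivo. HK2 and 786-O are labelled as parental cells and the metastatic line as derived from 786-O. Each line had 3 libraries, and all 9 came from untreated cultures in Plasmax, a medium with nutrients at levels like those of human plasma. Each group is thus 1 cell line, and a difference between lines cannot be told apart from a difference between the individual cultures from which they were established. The comparisons asked how the carcinoma line differed from the tubule line, how the metastatic line differed from the tubule line, and how the metastatic line differed from its parent. The first and the second share the HK2 libraries, and the second and the third share the libraries of the metastatic line. The first and the third share the 786-O libraries, so a dip or a peak in 786-O rests on the same libraries in both.

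ATP outside the cell is sensed by P2X receptors, which are ion channels, and by P2Y receptors, which couple to G proteins. CD39, the product of *ENTPD1*, removes phosphates from ATP and ADP, and CD73, the product of *NT5E*, converts the remaining AMP to adenosine, which acts on a separate family of G protein-coupled receptors. In the kidney, extracellular ATP and adenosine are known for their part in tubular transport and in the control of filtration, and in tumours adenosine is known to dampen immune cells.

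*SLC17A9* was at 0 counts in every HK2 library and at 89.9 ± 3.87 counts per 1000000 (CPM, SD, n = 3) in 786-O and 135 ± 4.81 CPM in the metastatic line. *ENPP4* had the opposite order, at 23.8 ± 0.921 CPM in HK2, 4.37 ± 0.510 CPM in 786-O and 0 counts in every library of the metastatic line. *NT5E* rose in 786-O and again in the metastatic line, whereas *P2RY2* was 11.1-fold lower in 786-O than in HK2 and 9.52-fold higher in the metastatic line than in 786-O. The adenosine receptors moved apart in the carcinoma line, where *ADORA1* was higher and *ADORA2B* lower than in HK2. CPM are scaled by library size and by a trimmed mean factor and are not corrected for gene length.

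The promoter sequences of *NT5E* and *ENPP1*, the enzyme genes that rose in 786-O, and of both adenosine receptors are printed as a description. These 4 are only part of the enzyme and receptor genes described below. They are the 250 bases before a RefSeq start in GRCh38.p14, on the forward strand and written 5′ to 3′, and lie at chr6:85449833-85450082 for *NT5E*, chr6:131807770-131808019 for *ENPP1*, chr1:203127476-203127725 for *ADORA1* and chr17:15944880-15945129 for *ADORA2B*. The *ADORA2B* window lies inside the gene span given below, so it is not the sequence before the outer end of that span. Capitals mark ACGTG or GCGTG on either strand, the core of the hypoxia response element.
NT5E: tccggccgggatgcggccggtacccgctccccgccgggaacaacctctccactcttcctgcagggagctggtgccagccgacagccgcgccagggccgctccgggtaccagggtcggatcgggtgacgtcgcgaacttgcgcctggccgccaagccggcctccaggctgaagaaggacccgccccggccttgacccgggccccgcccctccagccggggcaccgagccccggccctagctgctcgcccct
ENPP1: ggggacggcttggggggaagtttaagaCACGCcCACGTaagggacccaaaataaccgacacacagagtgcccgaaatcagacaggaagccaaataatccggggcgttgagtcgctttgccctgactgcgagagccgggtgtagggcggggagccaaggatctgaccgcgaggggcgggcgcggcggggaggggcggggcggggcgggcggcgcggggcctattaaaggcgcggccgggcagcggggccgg
ADORA1: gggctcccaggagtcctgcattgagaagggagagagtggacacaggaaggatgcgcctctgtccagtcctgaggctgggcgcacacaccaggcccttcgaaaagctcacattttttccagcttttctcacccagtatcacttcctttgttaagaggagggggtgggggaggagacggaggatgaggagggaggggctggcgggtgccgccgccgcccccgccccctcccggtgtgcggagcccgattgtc
ADORA2B: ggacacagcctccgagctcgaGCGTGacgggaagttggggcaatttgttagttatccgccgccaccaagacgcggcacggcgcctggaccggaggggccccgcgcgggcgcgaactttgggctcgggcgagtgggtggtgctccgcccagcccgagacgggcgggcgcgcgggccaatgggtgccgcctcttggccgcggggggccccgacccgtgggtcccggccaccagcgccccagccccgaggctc
The *ENPP1* window holds 2 cores, the *ADORA2B* window holds 1, and the *NT5E* and *ADORA1* windows hold 0. Over all 35116 RefSeq promoters of this length, 43.2% hold at least 1, so a match is common and is given only as a description of the letters. The windows of *NT5E* and *ENPP1* each hold 28 CpG dinucleotides, *ADORA2B* holds 33 and *ADORA1* holds 12, against a median of 11 over all promoters. RefSeq promoters were matched for 7 of the 10 members, and *SLC17A9*, *ENPP4* and *P2RY2* are named without a sequence.

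Libraries held 30212291 to 45362428 counts, and each of the 9 correlated best with another library of its own line. Of the proximal tubule markers, only *GGT1* and *ANPEP* were at 1 CPM or more in every library. *GGT1* was at 108, 80.6 and 88.3 CPM in HK2, 786-O and the metastatic line. *ANPEP* was at 1.75, 112 and 19.8 CPM and thus lowest in HK2. In HK2, *CUBN*, *AQP1* and *HNF4A* were at 0.742, 0.622 and 0.0238 CPM, and *SLC34A1* had 7 to 14 counts. *LRP2* was at 0 in all 9 libraries. All 6 kidney epithelium markers were above 1 CPM in HK2 and the metastatic line, and 5 of them in 786-O. The clear cell list summed to 211 to 225 CPM in HK2, 1002 to 1055 CPM in 786-O and 1505 to 1540 CPM in the metastatic line, carried by the glucose transporter *SLC2A1* and the growth factor *VEGFA*. In the same list *CA9* had 0 to 3 counts per library and *ANGPTL4* was at 2.58, 3.12 and 3.25 CPM in HK2, 786-O and the metastatic line. The blood cell markers *PTPRC*, *CD3E* and *HBB* were at 0 in every library, whereas *CD68* was at 51.0, 27.0 and 36.0 CPM. The fibroblast list summed to 22.9 to 24.1 CPM in HK2, 17.5 to 19.0 CPM in 786-O and 4.95 to 6.09 CPM in the metastatic line, mostly from *LUM* at 22.5, 14.6 and 5.48 CPM, and the part of these markers in the results was not tested. The endothelial markers summed to at most 0.124 CPM. In bulk RNA, fewer cells with a transcript and less RNA per cell cannot be told apart.

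**Figure D1:**
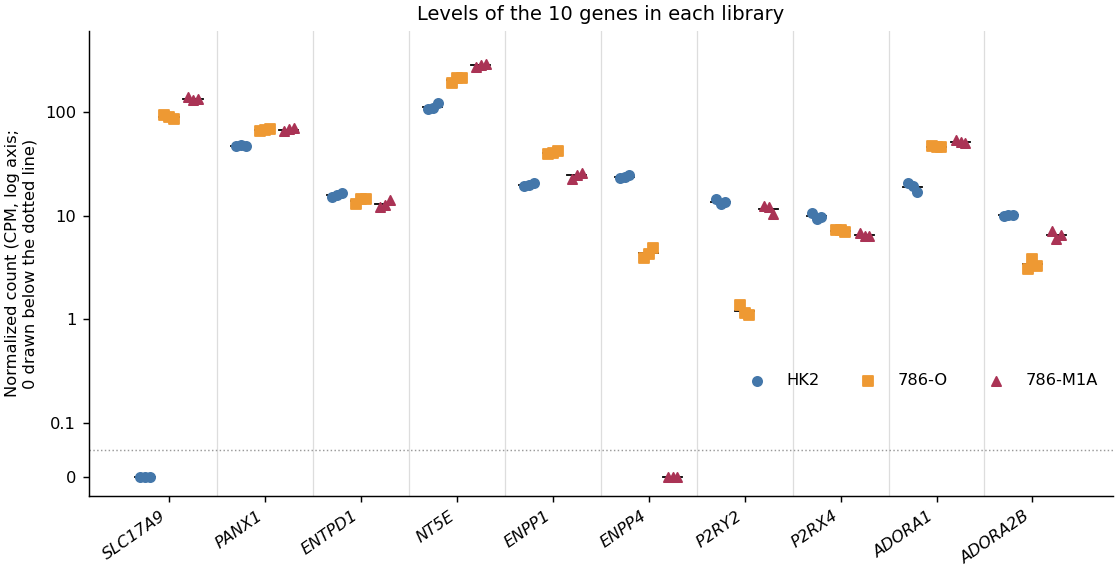
CPM on a log axis for each member in each library, with HK2, 786-O and the metastatic line (the last name in the legend) in separate columns (points, 3 libraries per line; bars, mean). *SLC17A9* is at 0 in HK2 and *ENPP4* is at 0 in the metastatic line, and the 3 libraries of a line lie close together beside the differences of *P2RY2*, *NT5E* and *ADORA1*.

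*SLC17A9* (NCBI gene 63910; GRCh38 chromosome 20, 62952709 to 62969585) encodes the vesicular nucleotide transporter, which loads ATP into secretory vesicles. It had 93.7, 90.1 and 85.9 CPM in the 786-O libraries and 140, 131 and 132 CPM in the libraries of the metastatic line. Counts were 3391 to 4152 in 786-O and 5006 to 5061 in the metastatic line. No HK2 library had a read, so the 3 lines did not overlap. A count of 0 allows up to 3 counts, which is at most 0.0966 CPM in HK2, and the gene was therefore at least 930-fold higher in 786-O and at least 1392-fold higher in the metastatic line than in HK2. The ratio of mean CPM of the metastatic line to 786-O was 1.497. These intervals and floors cover counting error only.

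Of the 6 nearest protein-coding genes around *SLC17A9*, chosen after the values were seen, none was at 0 in HK2 and detected in the other lines, as the plot of neighbouring genes shows. *GID8*, 4.23 kb away, was at 96.0, 75.9 and 74.9 CPM in HK2, 786-O and the metastatic line. *BIRC7* had the opposite order, at 19.8, 0.0643 and 0.0354 CPM, and *BHLHE23* was at 0 in every library. Over the 9 libraries, the genes most like *SLC17A9* by the root mean square difference of centred log2 CPM were *FLG* (0.251), *EMC10* (0.368) and *ITIH5* (0.520), out of 12663 genes searched. *FLG* had 1 to 2 counts in HK2, and 161 and 197 CPM in 786-O and the metastatic line.

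*PANX1* (NCBI gene 24145; chromosome 11, 94128841 to 94181968) encodes pannexin 1, a channel through which ATP leaves the cell. It was at 46.8, 47.8 and 47.4 CPM in HK2, 66.2, 67.4 and 67.9 CPM in 786-O and 65.0, 68.2 and 69.5 CPM in the metastatic line. The HK2 libraries lay below those of both other lines, which overlapped each other. The log2 fold change (LFC) was 0.50 (SE 0.0413, edgeR adjusted p = 2.06e-10) in 786-O and 0.51 (SE 0.0415, edgeR adjusted p = 1.50e-10) in the metastatic line against HK2. Between the metastatic line and 786-O the difference was 0.0089 (95% interval -0.07 to 0.09, edgeR adjusted p = 0.874).

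**Figure D2:**
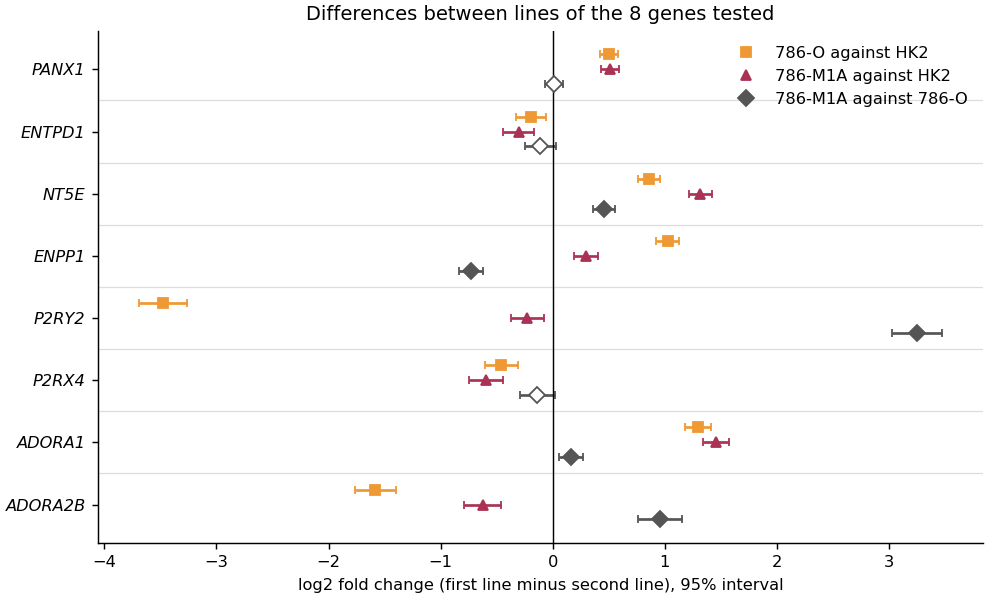
Log2 fold change with its 95% interval for the 8 tested members in each comparison, where filled points have an edgeR adjusted p under 0.05. All 8 members are filled against HK2, and *PANX1*, *ENTPD1* and *P2RX4* are open between the metastatic line and 786-O.

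*NT5E* (NCBI gene 4907; chromosome 6, 85450083 to 85495784) encodes CD73, the ectoenzyme that makes adenosine from AMP. It was at 108, 110 and 121 CPM in HK2, 190, 214 and 211 CPM in 786-O and 272, 284 and 288 CPM in the metastatic line. The libraries of the 3 lines did not overlap. The LFC was 0.86 (SE 0.0502, edgeR adjusted p = 5.22e-12) in 786-O and 1.32 (SE 0.0503, edgeR adjusted p = 5.40e-15) in the metastatic line against HK2. The metastatic line was 1.37-fold above 786-O (LFC 0.46, SE 0.0489, edgeR adjusted p = 1.93e-07). *NT5E* and *ADORA1* were the tested members that rose both from HK2 to 786-O and from 786-O to the metastatic line.

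*ENTPD1* (NCBI gene 953; chromosome 10, 95694185 to 95877266) encodes CD39, which acts one step before CD73. It had 15.2, 16.0 and 16.4 CPM in HK2, 12.9, 14.3 and 14.5 CPM in 786-O and 12.04, 12.54 and 14.02 CPM in the metastatic line. HK2 was above the other lines, which overlapped. The LFC was -0.19 (SE 0.068, edgeR adjusted p = 0.0124) in 786-O, and this call was lost without HK2 replicate 3 (LFC -0.17, edgeR adjusted p = 0.0570) or without 786-O replicate 1 (LFC -0.14, edgeR adjusted p = 0.0834). The LFC was -0.30 (SE 0.0696, edgeR adjusted p = 3.88e-04) in the metastatic line against HK2, and -0.11 (95% interval -0.25 to 0.03, edgeR adjusted p = 0.190) against 786-O. The antisense gene *ENTPD1-AS1*, which overlaps 40.03% of its exonic bases, had 3 to 15 counts per library. Reads of the pair cannot be told apart if strand was not used in counting. The ratio of *NT5E* to *ENTPD1* counts in one library needs no scaling and was 7.11 ± 0.249 in HK2, 14.7 ± 0.178 in 786-O and 21.9 ± 1.17 in the metastatic line (SD, n = 3), with no overlap between lines. The ratios were chosen after the values were seen and are a description.

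*ENPP1* (NCBI gene 5167; chromosome 6, 131808020 to 131895155) encodes an ectonucleotide pyrophosphatase that cuts ATP to AMP and pyrophosphate. It was at 19.3, 19.6 and 20.8 CPM in HK2, 39.3, 40.7 and 41.6 CPM in 786-O and 22.8, 24.8 and 25.7 CPM in the metastatic line. The 3 lines did not overlap, and 786-O was highest. Against HK2 the LFC was 1.02 (SE 0.0536, edgeR adjusted p = 8.07e-14) in 786-O and 0.30 (SE 0.0563, edgeR adjusted p = 5.36e-05) in the metastatic line. From 786-O to the metastatic line it fell by 0.73 (SE 0.0525, edgeR adjusted p = 1.32e-10) on the log2 scale.

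*ENPP4* (NCBI gene 22875; chromosome 6, 46129989 to 46146688) encodes a related membrane enzyme. Its 3 HK2 libraries had 23.0, 23.6 and 24.8 CPM, from 714 to 1147 counts, and the 786-O libraries had 3.90, 4.30 and 4.92 CPM, from 162 to 208 counts. It was at 0 counts in all libraries of the metastatic line, which allows at most 0.0830 CPM. HK2 was 5.44-fold above 786-O by mean CPM. It was at least 287-fold above the metastatic line, and 786-O was at least 52.7-fold above the metastatic line. The 3 lines did not overlap.

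*ENPP5*, the gene next to *ENPP4* at 12.5 kb, had 198 to 287 counts in HK2, 7 to 9 in 786-O and 0 to 1 in the metastatic line. *ENPP5* passed the filter on low counts only through HK2, where it was high, so its differences are given as a description. The LFC was -4.97 in 786-O against HK2 and -4.02 in the metastatic line against 786-O, the latter from very few reads. The ratio of HK2 to the metastatic line was 688 with an exact counting interval of 123 to 27210. On the other side, *CLIC5*, 0.17 kb away, had 0 to 2 counts per library in HK2 and 786-O and 0 in the metastatic line. Beyond *ENPP5*, *RCAN2* had 2 to 5 counts in HK2, 1 to 7 in 786-O and 0 in the metastatic line, and *CYP39A1* had 0 to 2, 10 to 21 and 0 to 1. The nearest of these 6 genes above 1 CPM in the metastatic line was *RUNX2*, 579 kb from *ENPP4*, at 71.1, 124 and 102 CPM in HK2, 786-O and the metastatic line. The genes most like *ENPP4* were *TMEM98* (0.425), *OSBPL1A* (0.450) and *RHOD* (0.464).

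**Figure D3:**
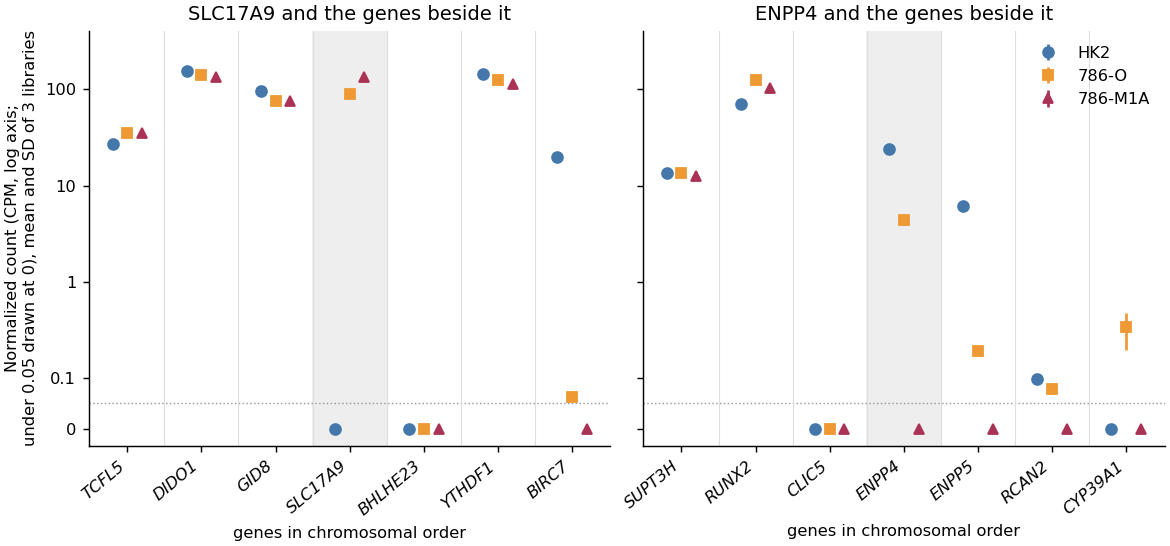
Mean CPM (log axis, values under 0.05 drawn at 0) of the 3 nearest protein-coding genes on either side of *SLC17A9* and *ENPP4* (shaded), in chromosomal order, in the 3 lines (points, mean; bars, SD of 3 libraries). *ENPP5* has the same order of lines as *ENPP4*, at 6.14, 0.193 and 0.00881 CPM, whereas *GID8* beside *SLC17A9* is detected in all 3 lines.

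*P2RY2* (NCBI gene 5029; chromosome 11, 73218281 to 73242427) encodes a receptor for ATP and UTP. It had 14.5, 12.8 and 13.5 CPM in HK2, 1.38, 1.14 and 1.11 CPM in 786-O, from 43 to 61 counts, and 12.3, 12.1 and 10.3 CPM in the metastatic line. The 786-O libraries lay far below both other lines, and the lowest HK2 library was above the highest library of the metastatic line. The LFC was -3.48 (SE 0.111, edgeR adjusted p = 1.27e-17) in 786-O against HK2 and 3.25 (SE 0.114, edgeR adjusted p = 7.28e-16) in the metastatic line against 786-O. In the metastatic line against HK2 it was -0.23 (SE 0.0768, edgeR adjusted p = 0.00980), a call lost without HK2 replicate 1 (LFC -0.18, edgeR adjusted p = 0.0529) or without replicate 3 of the metastatic line (LFC -0.15, edgeR adjusted p = 0.0855). A non-coding gene on the same strand shares 37.5% of the exonic bases of *P2RY2* and has no counts of its own here. Reads from that gene may therefore be included in the count of *P2RY2*.

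*P2RY6*, a receptor for UDP, lies 22.1 kb from *P2RY2* and was at 12.3, 6.72 and 11.4 CPM in HK2, 786-O and the metastatic line. It was lower in 786-O than in HK2 (LFC -0.86, edgeR adjusted p = 1.82e-08) and higher in the metastatic line than in 786-O (LFC 0.76, edgeR adjusted p = 5.05e-07). The ratio of *P2RY2* to *P2RY6* counts was 1.11 ± 0.0114 in HK2, 0.180 ± 0.0108 in 786-O and 1.02 ± 0.133 in the metastatic line (SD, n = 3). *FCHSD2*, on the other side of *P2RY2*, was at 25.6, 38.3 and 38.5 CPM and did not share the dip in 786-O.

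*P2RX4* (NCBI gene 5025; chromosome 12, 121210129 to 121234106) encodes an ATP-gated cation channel. It was at 10.7, 9.27 and 9.77 CPM in HK2, 7.29, 7.28 and 7.02 CPM in 786-O and 6.81, 6.44 and 6.37 CPM in the metastatic line. The 3 lines did not overlap. Against HK2 the LFC was -0.46 (SE 0.0754, edgeR adjusted p = 9.11e-06) in 786-O and -0.60 (SE 0.0777, edgeR adjusted p = 3.40e-07) in the metastatic line. Between the metastatic line and 786-O the difference was -0.14 (95% interval -0.30 to 0.02, edgeR adjusted p = 0.154).

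*ADORA1* (NCBI gene 134; chromosome 1, 203127726 to 203167405) encodes the A1 adenosine receptor, which couples to an inhibitory G protein. It had 20.7, 19.3 and 16.9 CPM in HK2, 46.8, 46.2 and 45.8 CPM in 786-O and 53.9, 51.29 and 50.03 CPM in the metastatic line. The 3 lines did not overlap. The LFC was 1.30 (SE 0.0583, edgeR adjusted p = 5.57e-15) in 786-O and 1.46 (SE 0.0583, edgeR adjusted p = 5.72e-16) in the metastatic line against HK2, and 0.16 (SE 0.0532, edgeR adjusted p = 0.0136) in the metastatic line against 786-O.

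*ADORA2B* (NCBI gene 136; chromosome 17, 15850362 to 15975746) encodes the A2B receptor, which couples to a stimulatory G protein and needs more adenosine than A1. It was at 9.95, 10.3 and 10.1 CPM in HK2, 3.05, 3.83 and 3.28 CPM in 786-O and 7.17, 6.02 and 6.48 CPM in the metastatic line. The 3 lines did not overlap, and 786-O was lowest. The LFC was -1.58 (SE 0.0930, edgeR adjusted p = 6.48e-13) in 786-O and -0.63 (SE 0.0847, edgeR adjusted p = 5.88e-07) in the metastatic line against HK2. The metastatic line was above 786-O by 0.96 (SE 0.0997, edgeR adjusted p = 4.40e-08). The ratio of *ADORA1* to *ADORA2B* counts was 1.88 ± 0.200 in HK2, 13.8 ± 1.64 in 786-O and 7.92 ± 0.524 in the metastatic line (SD, n = 3), again with no overlap between lines. *ADORA2A* had 0 to 5 counts per library and *ADORA3* had 0 to 4.

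**Figure D4:**
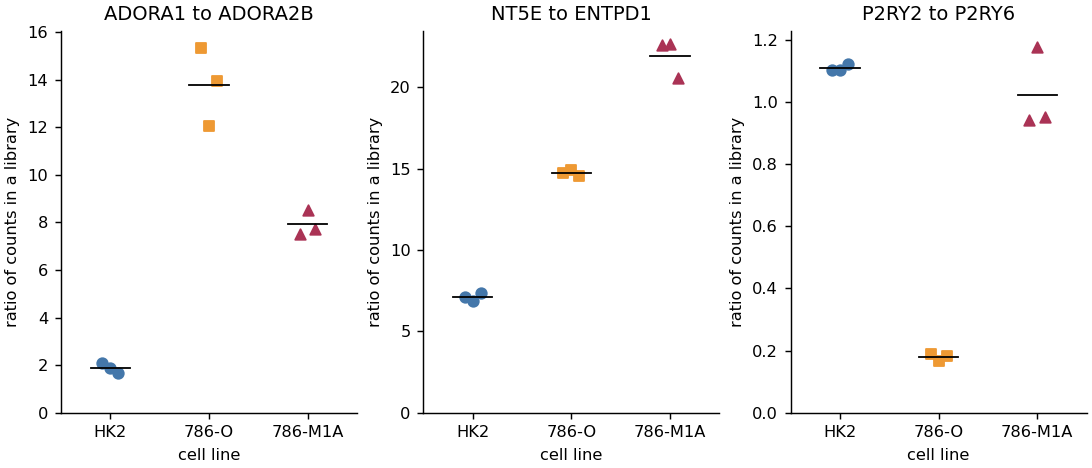
Ratio of the counts of 2 genes within each library (points, 3 per line; horizontal bars, mean; linear axes from 0), for *ADORA1* to *ADORA2B*, *NT5E* to *ENTPD1* and *P2RY2* to *P2RY6*. *ADORA1* to *ADORA2B* is highest in 786-O and *NT5E* to *ENTPD1* is lowest in HK2 and highest in the metastatic line.

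Against HK2, all 8 tested members were called in 786-O, where 84.2% of all 12695 genes tested were called, and 4 rose while 4 fell. The same count in the metastatic line was 8 of 8, with 4 risen and 4 fallen, where 84.9% of all genes were called. In the metastatic line against 786-O, 5 of 8 were called, with *NT5E*, *P2RY2*, *ADORA1* and *ADORA2B* higher and *ENPP1* lower, where 56.0% of all genes were called. All 3 shares were thus near the background of their comparison. No library of one line overlapped the other line for 8, 8 and 6 of the 8, against 85.5%, 85.0% and 61.6% of all genes. At 2-fold or more, 4, 2 and 1 of the 8 were called, against 22.3%, 25.4% and 6.59% of all genes. The median absolute LFC of the 8 was 0.94, 0.55 and 0.31, against 0.47, 0.51 and 0.17 over all genes tested. With 3 libraries against 3, an exact permutation test of a single gene cannot go below p = 0.1.

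Levels were also set per length as transcripts per 1000000 (TPM), with the merged exon length of each gene. *NT5E* was highest in every line, at 117, 211 and 274 TPM in HK2, 786-O and the metastatic line. *PANX1* followed in HK2 at 78.3 TPM. *SLC17A9* reached 76.8 TPM in 786-O, below *PANX1* at 110, and 109 TPM in the metastatic line, beside *PANX1* at 105 ± 4.74 (SD, n = 3), a difference within this spread that depends on the length used, since the length of the longest transcript gave 103 and 72.5 TPM. *ADORA1* was at 21.4 ± 2.24 TPM in HK2, which did not differ from *ADORA2B* at 20.4 TPM beyond its spread, and at 51.5 and 54.5 TPM in 786-O and the metastatic line, above *ADORA2B* at 6.76 and 12.4 TPM. With the length of the longest transcript instead, *ENPP4* went from rank 3 to rank 5 in HK2, and *NT5E* and *PANX1* kept their ranks. *P2RY2* in 786-O was the lowest detected level, at 0.630 TPM.

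The wider list of genes of nucleotide and adenosine handling held 46 genes, of which 21 passed the filter, and 25 did not, 3 of these at 0 in every library. Whether the product of each listed gene acts outside the cell was not examined. In 786-O against HK2, 20 of the 21 were called (84.2% of all genes), with 3 higher and 17 lower. In the metastatic line against HK2 it was 19 (84.9% of all genes), with 5 higher and 14 lower, and in the metastatic line against 786-O it was 16 (56.0% of all genes), with 8 higher and 8 lower. The median LFC over the 21 was -0.51, -0.41 and 0.052, against -0.013, -0.019 and 0 over all genes tested. These counts and medians include *ENPP5* and *P2RX5*, which passed the filter only through HK2, where they were high. Their falls against HK2 are thus a description. *P2RY11*, also included, passed only through the lines where it was higher, so its rises against HK2 are a description too. Of 12 genes listed for hydrolysis of nucleotides, 5 were tested. These 5 include *ENPP5*, whose fall is a description. The others, *ENTPD4*, *ENTPD5*, *ENTPD6* and *ENTPD7*, fell against HK2 in both other lines, where 42.6% and 43.3% of all genes fell. Among the members, *NT5E* and *ENPP1* rose in both, *ENTPD1* fell in both, and *ENPP4*, picked for its levels, was lower in both. Of the listed genes below the filter, *ENTPD2* had more counts in both other lines than in HK2, and *ENTPD8* and *ALPL* had fewer. *SLC29A4*, a transporter that also carries adenosine, was at 6.18, 17.8 and 9.25 CPM in HK2, 786-O and the metastatic line and rose in 786-O (LFC 1.53, edgeR adjusted p = 2.23e-14).

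*GJA1*, the gap junction protein connexin 43, was at 89.3, 52.1 and 162 CPM and rose in the metastatic line against 786-O (LFC 1.64, edgeR adjusted p = 1.84e-18). *VAMP7*, a protein of vesicle fusion, rose in the same comparison (LFC 0.59, edgeR adjusted p = 4.60e-11). Its levels were 105, 76.5 and 115 CPM in HK2, 786-O and the metastatic line. Against HK2 it was lower in 786-O (LFC -0.45, edgeR adjusted p = 8.19e-10) and slightly higher in the metastatic line (LFC 0.14, edgeR adjusted p = 0.00258). *CALHM2* fell in 786-O (LFC -2.45, edgeR adjusted p = 1.30e-14) and in the metastatic line (LFC -2.14, edgeR adjusted p = 8.83e-14) against HK2. *P2RX5*, another ATP-gated channel, had 177 to 297 counts in HK2, 15 to 22 in 786-O and 0 in the metastatic line, and HK2 was at least 71.8-fold above the metastatic line. A readthrough transcript overlaps *P2RX5*, and *PPAN* overlaps *P2RY11*, so the counts of both are uncertain. *P2RY1*, a receptor for ADP that did not pass the filter, had 39 to 68 counts in HK2 and 0 in both other lines, and HK2 was at least 16.2-fold above 786-O and 15.5-fold above the metastatic line. *P2RY11* had 32 to 41 counts in HK2, 62 to 77 in 786-O and 42 to 58 in the metastatic line. Its LFC against HK2 was 0.85 in 786-O and 0.58 in the metastatic line. The gene passed the filter only through the lines where it was higher, so these values are a description. *ADK*, adenosine kinase, was higher in 786-O than in HK2 (LFC 0.11, edgeR adjusted p = 0.0127).

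**Figure D5:**
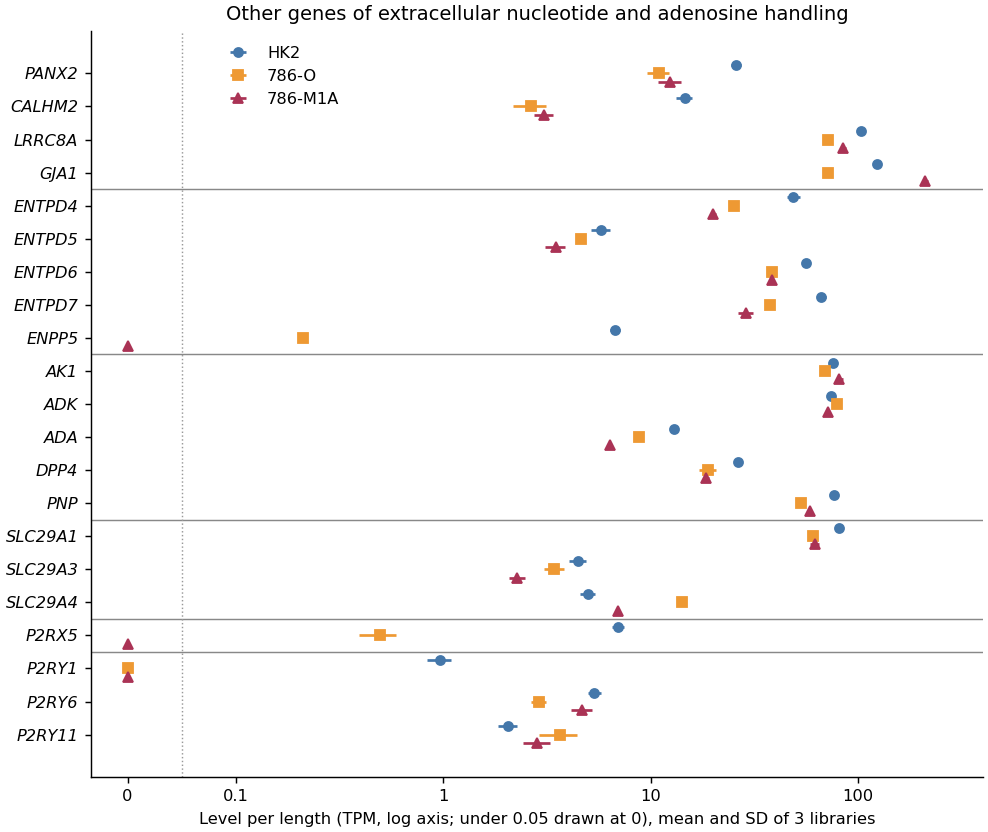
Mean TPM (log axis, values under 0.05 drawn at 0; bars, SD of 3 libraries) of the wider list in the 3 lines, grouped by role, for the genes that passed the filter and *P2RY1*, without *VAMP7*. *ENPP5* and *P2RX5* are highest in HK2 and *GJA1* is highest in the metastatic line.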

How the data were processed

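The libraries were made with TruSeq Stranded mRNA kits and sequenced on a NextSeq instrument, from cells plated onto replicate dishes, so p-values measure only the spread between these libraries. The deposited values are raw read counts per gene that the authors obtained with featureCounts on GRCh38. The annotation release and strand setting are not given in the sources used here. Gene symbols came from NCBI gene IDs (27745 of 28395 matched).

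From these counts, the 12695 genes with an average count of 50 or more entered 1 edgeR (4.0.16, R 4.3.3) robust quasi-likelihood fit of all 9 libraries, with TMM scaling (factors 0.967 to 1.03), and p-values were Benjamini-Hochberg adjusted over all genes tested at 0.05. A fold against a line at 0 counts used 3 counts per library. TPM used merged GENCODE exon lengths. The fit was tested on simulated data. DESeq2 (1.42.0), limma-voom (3.58.1), other filters, scalings, a replicate block and leaving out each library were alternatives. Promoters came from RefSeq. Protein sequences were not used here.

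The members and lists were chosen with earlier results of these data known. Named from the wider list were, in each comparison, the 3 called genes with the largest rise and the 3 with the largest fall, and genes at 0 in one line with 1 CPM or more in every library of another. For *SLC17A9* and *ENPP4*, the 3 genes with the most similar pattern were named.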

Additional observations from a re-analysis of the deposited data

How the results depend on the processing

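The counts of members called kept their size under every alternative run, at 7 to 8, 7 to 8 and 5 of 8 for 786-O against HK2, the metastatic line against HK2 and the metastatic line against 786-O when 1 library was left out. Without a filter on low counts, 30 genes of the wider list were called in the metastatic line against HK2, from 43 genes tested, where 64.7% of all 21241 genes were called. *PANX1* in the metastatic line against 786-O ranged from -0.012 to 0.036 (LFC) with 1 library left out, and was called in no case. Besides the losses of *ENTPD1* and *P2RY2* given above, no single member lost its call. A block on replicate number left the calls at 8, 8 and 5 members. Same-numbered libraries correlated at -0.057 to -0.029, -0.167 to 0.038 and 0.074 to 0.215 in the 3 comparisons, and 0, 1 and 6 of 6 libraries correlated best with their own number. The planned rule asked every pair to pass a set correlation, which was not met, so the main fit did not pair the libraries. In the metastatic line against 786-O, however, all 6 libraries matched best by number and every correlation was positive. Genes with few reads, such as *P2RY2* in 786-O, are limited by depth.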

Other observations

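Several receptor and enzyme genes of the same system stayed below the filter. *P2RX7*, the ATP-gated channel next to *P2RX4*, had 0 counts in each HK2 library, 1 in each 786-O library and 11 to 17 in the libraries of the metastatic line. *ENTPD2*, another ectonucleotidase, had 4 to 8 counts in HK2, 19 to 24 in 786-O and 20 to 26 in the metastatic line, and *ALPL*, alkaline phosphatase, had 6 to 13 counts in HK2 and 0 to 1 in both other lines. These values were not tested.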
